A study of Mus musculus with 12 samples.

Results

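The external granule layer is the outermost cell layer of the newborn cerebellum, and its transcriptome in wild-type mice at postnatal day 6 is described here. It was taken as the 5 wild-type libraries that the submitters did not mark as outliers, out of 12 libraries in all. They are numbered 1, 3, 5, 6 and 7 in their titles and are written here as WT1 to WT7. The study measured RNA by sequencing in tissue cut by laser capture from the central lobules of C57BL/6 mice, and set a conditional knockout of SnoN against control littermates. SnoN is a transcriptional regulator of the TGF-beta pathway that is encoded by Skil. The knockout libraries and WT2, the wild-type library marked as an outlier, are outside the description, except that WT2 was added as an alternative. The labels call the genotype wild type and the series text calls the mice control littermates. They do not say whether the controls carried floxed alleles or a Cre transgene, which driver was used, whether animals were pooled, or whether each library came from a separate mouse. Spread between libraries is therefore spread between these samples and may be partly technical.

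Granule neurons are the small excitatory neurons that make up most neurons of the cerebellum. Their precursors cover the cerebellar surface after birth as the external granule layer, divide there in response to Sonic hedgehog made by Purkinje cells, and express the transcription factor Atoh1. Cells that leave the cell cycle gather in the inner part of the layer, switch on Neurod1 and cytoskeletal genes, and migrate inward along the fibres of Bergmann glia. The layer thus holds dividing precursors and young neurons side by side, with the pia above and Purkinje cells and glia below.

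The gene counts of a library ran from 7520076 (WT6) to 14790995 (WT7) in total, and 18507 to 19892 genes per library had a count. Levels are given as RPKM, counts per kilobase of merged exon and per 1000000 scaled counts, so that genes of different length can be compared. They are written as mean ± SD (n = 5), or as 5 values in the fixed order WT1, WT3, WT5, WT6, WT7. A gene is called detected where it had at least 1 RPKM in all 5 libraries, which 9646 of 21865 protein-coding genes did (44.1%). A further 5875 (26.9%) had no count in any library, which at 3 counts over the summed total allows up to 0.0529 CPM, and 6344 lay between. That limit, like any based on counts alone, covers counting error only. The shares of 44.1% and 26.9% are the background for every count of list or family members below. The lists and families were chosen with earlier results of these data known, so their distance from the background is a description only. The length of the longest annotated transcript in place of merged exons was tried for named genes with a mean of at least 1 RPKM. Where it would raise a level by more than 1.5 times, that second value follows in parentheses. Genes with a lower mean were not checked for this, and a few are marked as given by merged exons alone.

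WT6 and WT3 differed most from the others. WT6 had the lowest total, the lowest mitochondrial share (1.53% of gene counts against 2.20% to 2.65%) and lower counts of genes with low GC content, for which WT3 was the highest. The 5 libraries correlated across genes with Pearson's r of 0.970 to 0.988 on log2 CPM, lowest between WT3 and WT6. Genes are not independent replicates, and r across them is a description only. In all 10 pairs the counts differed by more than sampling noise, with a chi-square of 6.15 to 19.3 per degree of freedom, so no 2 were merged as one library. Such a difference does not tell separate animals from separate preparations.

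All 6 markers chosen for the layer were detected in every library. Neurod1, the bHLH factor that drives granule neuron differentiation, was at 1013, 1293, 1176, 570.3 and 851 RPKM. It was the highest of the 6 in each library and ranked 25 among all protein-coding genes, with WT6 well below the rest. Zic1, a zinc finger factor of the granule lineage, was at 145, 162, 161, 112 and 150.1 RPKM, again lowest in WT6. Ccnd2, the D-type cyclin of cycling precursors, was at 58.5, 54.8, 61.7, 72.4 and 62.3 RPKM, and here WT6 was the highest. Atoh1, the factor that specifies granule precursors, was at 36.7, 46.9, 37.4, 56.4 and 48.0 RPKM. Pax6, a paired box factor of precursors and granule neurons, was at 42.2, 50.3, 46.4, 39.8 and 38.8 RPKM. Atoh1 exceeded Pax6 in only 2 of 5 libraries and their ranges overlapped, so these 2 genes were not ordered. Mki67, which encodes a nuclear protein of dividing cells, was lower than the other 5 at 13.1, 15.1, 13.2, 13.3 and 14.7 RPKM, and its libraries differed little. In bulk tissue fewer cells of a type and less RNA per cell cannot be told apart, so these levels do not give the share of precursors or of young neurons. By mean over the 5 libraries the markers ran from 981 ± 284 RPKM for Neurod1 and 146 ± 20.2 RPKM for Zic1 through 62.0 ± 6.55 RPKM for Ccnd2, 45.1 ± 8.23 RPKM for Atoh1 and 43.5 ± 4.81 RPKM (115 by its longest transcript) for Pax6 to 13.9 ± 0.954 RPKM for Mki67.

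**Figure D1:**
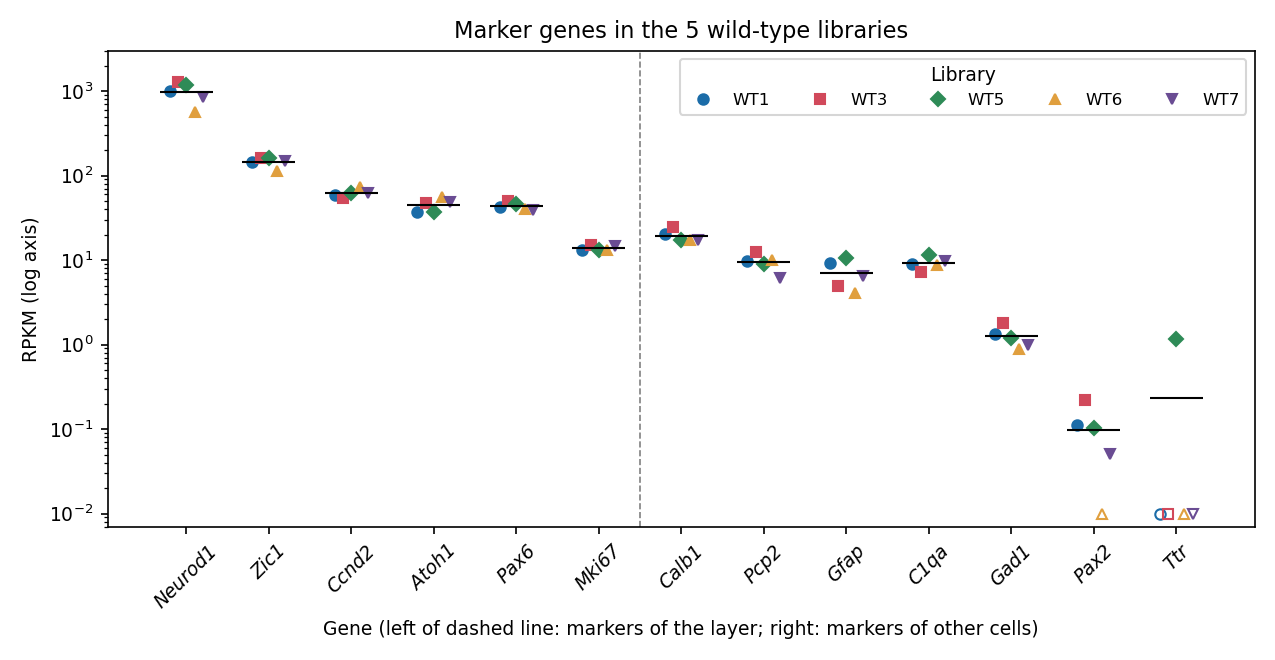
RPKM on a log axis of the 6 layer markers (left of the dashed line) and of 7 markers of other cells (right), 1 symbol per library, with the mean of 5 libraries as a bar and open symbols at the lower edge for libraries with no count. Neurod1 has a mean of 981 RPKM with WT6 lowest, and Pax2 and Ttr lie near or at the floor. The 7 were picked from longer lists, and the figure does not set the layer against other cells as a whole. Abundant markers of other cells such as Hbb-bs (mean 559 RPKM), Fabp7 (426 RPKM) and Cldn5 (119 RPKM) are not drawn.

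The positions of the 6 marker genes are given on GRCm38. Neurod1 is at chr2:79452521-79456751 on the minus strand, Pax6 at chr2:105668900-105697364 on the plus strand, Atoh1 at chr6:64729125-64731245 on the plus strand and Ccnd2 at chr6:127125162-127152193 on the minus strand, while Mki67 is at chr7:135689784-135716361 on the minus strand and Zic1 at chr9:91358058-91365810 on the minus strand. Zic1 overlaps Zic4 on the opposite strand, and the library kit did not mark strand, so reads from the shared part cannot be assigned by strand. Promoter sequences from RefSeq (GRCm38.p6) are shown for 3 of the markers, for Tubb3 as an abundant neuronal gene, and for 2 genes without a count, Gabra6 and Emx1. Each runs 5′ to 3′ on the strand of its gene from 100 bases before the annotated start to 10 after it. Capitals mark GGGCGG or its complement CCGCCC, the core of the GC box bound by Sp factors, and TATAA where it lies 40 to 16 bases before the start.
Neurod1, chr2:79456627-79456736, minus strand: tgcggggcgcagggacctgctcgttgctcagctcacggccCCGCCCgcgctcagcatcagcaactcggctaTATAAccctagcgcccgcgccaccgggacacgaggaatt
Atoh1, chr6:64729025-64729134, plus strand: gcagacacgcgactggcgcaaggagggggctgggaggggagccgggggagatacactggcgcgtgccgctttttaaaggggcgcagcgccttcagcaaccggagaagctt
Zic1, chr9:91365759-91365868, minus strand: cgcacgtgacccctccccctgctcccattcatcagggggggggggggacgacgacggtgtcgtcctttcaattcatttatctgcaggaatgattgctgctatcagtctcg
Tubb3, chr8:123411453-123411562, plus strand: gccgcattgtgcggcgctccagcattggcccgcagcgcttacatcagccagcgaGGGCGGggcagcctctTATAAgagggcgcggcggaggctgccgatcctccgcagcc
Gabra6, chr11:42321063-42321172, minus strand: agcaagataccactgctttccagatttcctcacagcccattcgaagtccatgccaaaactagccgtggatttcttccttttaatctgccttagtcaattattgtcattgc
Emx1, chr6:85187831-85187940, plus strand: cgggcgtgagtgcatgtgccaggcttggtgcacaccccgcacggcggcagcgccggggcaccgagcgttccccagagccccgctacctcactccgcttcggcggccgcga
Neurod1 and Tubb3 carried both motifs within these bases, and the other 4 carried neither.

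Over 13826 genes with a single RefSeq promoter entry, promoter composition differed between level classes. A window of 250 bases before to 50 after the start had a median GC content of 62.0% for 6112 detected genes, 57% for genes with a count that were not detected, and 45.3% for 3924 genes without a count. GGGCGG on either strand was present in 69.7% of detected promoters, 47.5% of the middle class and 11.6% of those without a count, against 47.1% of all. TATAA in the stated window ran the other way, at 1.57%, 5.25% and 9.76% against 4.90% of all, but reached 4.15% among genes at 100 RPKM or more. Those 313 genes had a median GC content of 60.3% and GGGCGG in 66.5%, both below the values of all detected genes. At a threshold of 5 RPKM the share with TATAA among genes that passed was 1.97%. Single genes did not follow the class. The promoter of Emx1, a forebrain factor without a count, had 74.0% GC and 3 copies of GGGCGG in its 300 bases, whereas that of Fabp7, at 426 ± 89.3 RPKM, had 54.0% GC and no copy. These are matches of letters, not measured binding.

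Among protein-coding genes the level was at least 10 RPKM for 3947 in all 5 libraries, at least 100 for 470 and at least 1000 for 18. By summed RPKM, 403 genes made up 50% of the total and 3909 made up 90%. Tmsb4x, which encodes the actin-binding peptide thymosin beta 4, had the highest mean of nuclear protein-coding genes at 4089, 3988, 4226, 2746 and 4146 RPKM (a mean of 6092 by its longest transcript). It exceeded Rps14 in 3 of 5 libraries with overlapping ranges, and by longest transcript Rps14 was the higher. Tuba1a, the alpha-tubulin of young neurons, was at 2777, 2567, 2812, 2475 and 2453 RPKM and Tubb5, a beta-tubulin, at 1777, 1591, 1705, 1746 and 1593 RPKM. Of 17 tubulin genes 11 were detected (64.7%, against 44.1% of all protein-coding genes), with a summed level of 5638 to 6248 RPKM.

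Of 102 genes of the ribosomal protein family 89 were detected (87.3%, against 44.1% of all protein-coding genes). Together the family held 5.04% to 5.48% of gene counts. Rplp1 and Rplp0, proteins of the ribosomal stalk, stood at 3099.9 ± 238 RPKM and 2949.7 ± 118 RPKM, and Eef1a1, which delivers transfer RNA to the ribosome, stood at 2686 ± 369.9 RPKM. Rps14 of the small subunit had the most counts of any protein-coding gene, 508794 over 5 libraries, and was at 3745 ± 342 RPKM (9084 by its longest transcript). Many ribosomal protein genes have processed pseudogenes, and reads placed at several sites are not in the counts, so their levels are uncertain. Rack1, a scaffold protein on the ribosome, was at 1493 ± 57.3 RPKM, and Hint1, a small hydrolase, at 2278 ± 72.7 RPKM. Marcks, an actin-regulating substrate of protein kinase C, was at 960.5, 1352, 1141, 774 and 1049 RPKM, and again WT3 was the highest and WT6 the lowest library.

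Genes of the mitochondrial genome varied more between libraries. Of 13 protein-coding genes 8 were detected, 4 had no count (mt-Co2, mt-Atp6, mt-Atp8 and mt-Nd4l), and mt-Co3 had 4 counts. Reads that align to several places or overlap several genes are not in these counts, and their part in the low counts was not tested. The highest, mt-Nd1 of respiratory complex I, was at 5143, 5382, 5541, 3960.1 and 7537 RPKM. The next named, mt-Cytb of complex III, was at 3476, 3706, 3471, 2374 and 4306 RPKM. WT6 was the lowest and WT7 the highest in both.

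**Figure D2:**
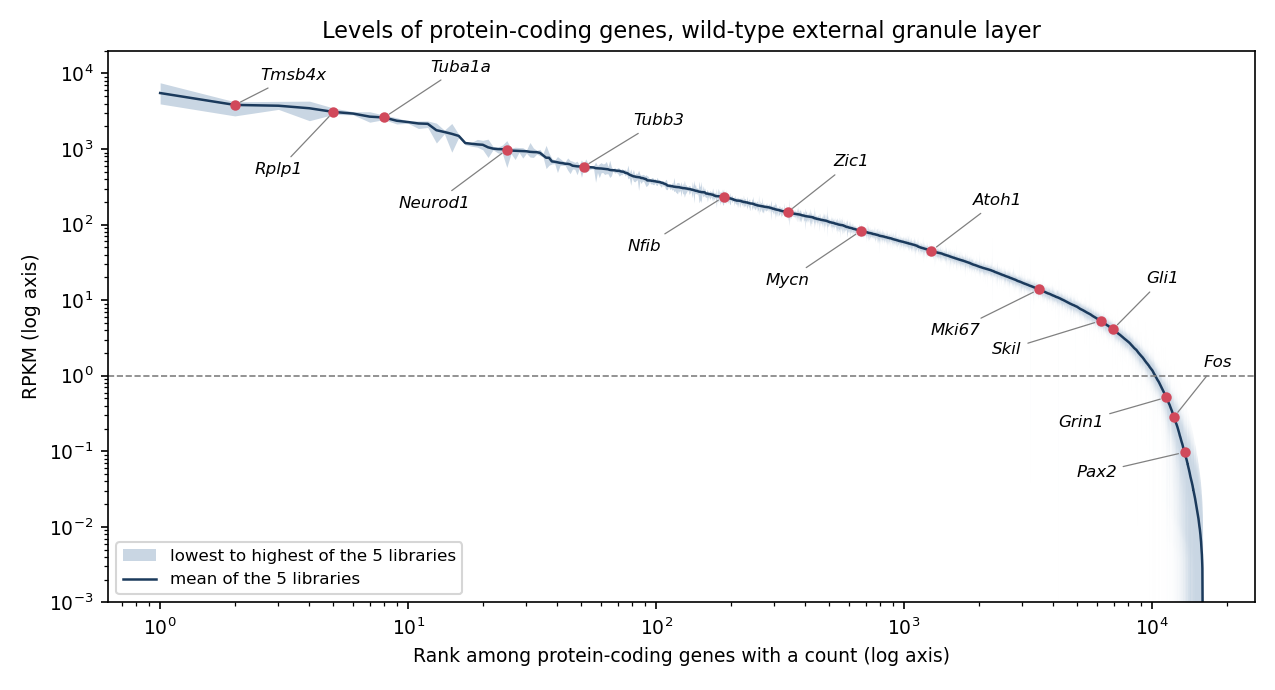
Mean RPKM of protein-coding genes with a count (line, both axes log) by rank, with the range of the 5 libraries shaded and named genes as points; the dashed line is 1 RPKM. Neurod1 ranks 25, Atoh1 1288, Mki67 3498 and Gli1 6958.

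Of 253 members of 20 transcription factor families, 84 were detected (33.2%, against 44.1% of all protein-coding genes) and 76 had no count (against 26.9%). Detection differed sharply by family. All members of the E2f (8), Zic (5), nuclear factor I (4), Id (4) and E protein (3) families were detected, and no member of the Hox (39), Irx (6), Gata (6) or Dlx (6) families was. The families were chosen for their roles in this and other brain regions and with earlier results of these data known. These counts therefore describe the families and not transcription factors at large.

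In the bHLH family of Neurod, Neurog, Nhlh and Atoh genes, Neurod1 was followed by Atoh1 and Nhlh2, which were not ordered (Atoh1 was higher in 3 of 5 libraries). Nhlh2 was at 43.7 ± 3.85 RPKM, Nhlh1 at 29.5 ± 2.85 RPKM, Neurod6 at 20.1 ± 2.20 RPKM and Neurod2 at 16.7 ± 3.67 RPKM. Nhlh1 and Nhlh2 mark newly formed neurons, and Neurod2 and Neurod6 act in excitatory neurons. Neurog1 and Neurog2, proneural factors of other lineages, were at 0.161 and 0.415 RPKM, and Neurog3 had no count. The E proteins, which pair with bHLH factors, were led by Tcf3 at 76.2 ± 8.15 RPKM and Tcf4 at 44.4 ± 6.54 RPKM (142 by its longest transcript). Id2, which binds E proteins and blocks such pairs, was at 129, 142, 136, 118 and 105 RPKM, above Id1 at 44.9 ± 6.31 RPKM and Id3 at 12.6 ± 1.34 RPKM.

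Nfib, of the nuclear factor I family that promotes granule neuron maturation, was at 226, 299, 265, 187 and 185 RPKM (a mean of 381 by its longest transcript). Insm1, a zinc finger factor of newborn neurons and neuroendocrine cells, was at 189, 189, 218, 247 and 213 RPKM. Nfib exceeded Insm1 in 3 of 5 libraries. WT3 was highest for Nfib, and WT6 was highest for Insm1. Nfia was at 50.6 ± 8.18 RPKM, Nfix at 16.1 ± 1.957 RPKM and Nfic at 6.51 ± 0.761 RPKM. In the Zic family, Zic2 at 57.3 ± 5.05 RPKM and Zic5 at 26.0 ± 2.64 RPKM were below Zic1, and Zic4 was at 11.8 ± 0.650 RPKM (31.3 by its longest transcript).

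Mycn, the Myc family member induced by Sonic hedgehog in precursors, was at 72.2, 97.9, 81.1, 76.9 and 86.2 RPKM. Myc itself was at 3.82 ± 0.350 RPKM, below Mycn in each library. Among homeobox factors of the granule lineage, Barhl1 was at 42.1 ± 7.54 RPKM, Uncx at 41.3 ± 5.77 RPKM and Barhl2 at 16.02 ± 1.27 RPKM. Of the Sox family the highest were Sox11 at 65.7 ± 8.01 RPKM, Sox4 at 30.1 ± 4.18 RPKM and Sox12 at 26.9 ± 4.33 RPKM. These act in young neurons. Sox9, a factor of glia, came next at 13.3 ± 2.25 RPKM by merged exons alone. Sox2, a factor of neural stem cells and glia, was at 2.44 ± 0.401 RPKM. Meis3 was detected at 9.26 ± 1.08 RPKM (15.3 by its longest transcript) and Meis1 at 7.07 ± 0.481 RPKM, but Meis2 had only 6 counts in all. The list of 38 granule lineage factors was also chosen with earlier results of these data known. It had 35 detected members and a median of 21.4 RPKM, against 0.693 RPKM over all protein-coding genes. Not detected were Meis2, Mef2c at 1.03 ± 0.226 RPKM (2.59 by its longest transcript) and Etv1 at 0.883 ± 0.260 RPKM.

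**Figure D3:**
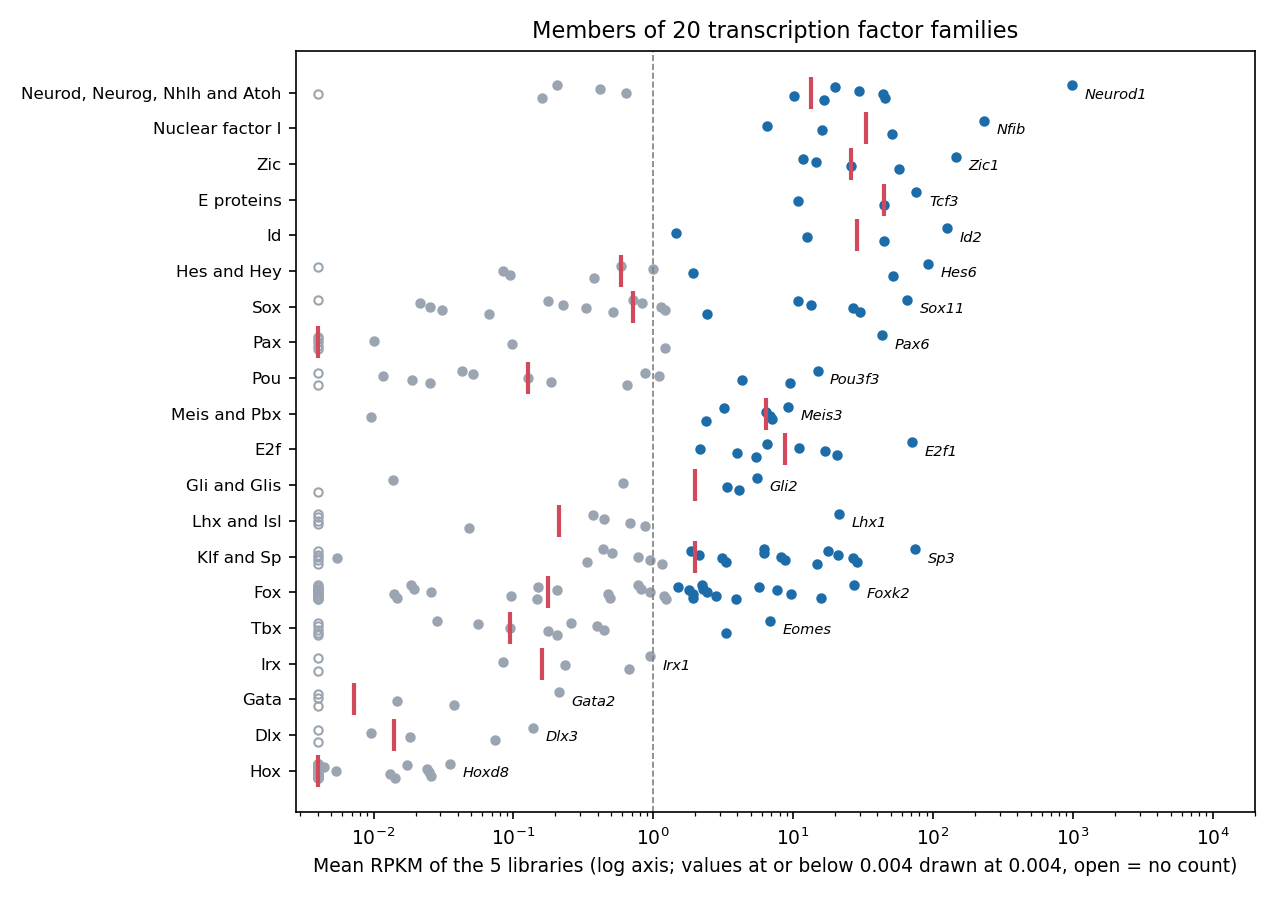
Mean RPKM (log axis) of each member of 20 transcription factor families, blue where detected and grey where not, open where no count was present, with the family median in red and the highest member named. Zic, nuclear factor I, E2f, Id and E protein members all lie above 1 RPKM, and all 39 Hox genes lie below 0.1 RPKM.

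Of 20 genes that mark brain regions 4 were detected (20%) and 10 had no count. Those without a count included the forebrain factors Emx1 and Emx2, the early hindbrain factor Gbx2, and the hindbrain and spinal cord factors Hoxa2, Hoxb2, Hoxa4, Hoxb4, Hoxa5 and Hoxc8. Over all 39 Hox genes 30 had no count, and the highest, Hoxd8, had 7 counts in 5 libraries. Detected were En2 at 28.1, 32.7, 33.9, 35.6 and 32.7 RPKM, En1 at 6.96 ± 2.37 RPKM, Otx2 at 20.2 ± 2.42 RPKM (33.0 by its longest transcript) and Neurod6, while Otx1 was at 1.06 ± 0.390 RPKM. En1 and En2 are engrailed factors that set up the midbrain and cerebellum, and Otx2 is known from precursors of the posterior lobules. Dlx1 and Dlx2, factors of forebrain inhibitory neurons, were at 0.00953 and 0.0739 RPKM.

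Cell cycle genes were abundant: 37 of 38 were detected, with a median of 36.1 RPKM. Cdk4, the kinase partner of D-type cyclins, was the highest at 278, 230.8, 247, 279 and 277 RPKM (a mean of 415 by its longest transcript). Among the D-type cyclins Ccnd2 exceeded Ccnd1 at 25.6 ± 6.48 RPKM and Ccnd3 at 2.29 ± 0.476 RPKM (5.20 by its longest transcript). For DNA synthesis, Rrm2, a subunit of ribonucleotide reductase, was at 109, 144, 117, 131 and 107 RPKM, and Pcna, the sliding clamp of DNA polymerase, at 106 ± 10.4 RPKM (167 by its longest transcript). The 6 subunits of the MCM helicase, which opens DNA at origins, ranged from 30.1 ± 4.28 RPKM for Mcm3 to 55.7 ± 8.61 RPKM for Mcm5. E2f1, which switches on S-phase genes, was at 69.1, 70.1, 66.9, 74.6 and 72.0 RPKM and varied little. Of the mitotic genes, Ccna2 was at 80.8 ± 7.35 RPKM, Ccnb2 at 80.3 ± 8.66 RPKM, Cdc20, an activator of the anaphase-promoting complex, at 77.8 ± 12.7 RPKM, and Top2a, topoisomerase II alpha, at 33.8 ± 1.85 RPKM (58.3 by its longest transcript).

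Genes that stop the cycle were present beside those that drive it. Cdkn1b, encoding the inhibitor p27, was at 113, 125, 113, 107 and 95.3 RPKM, and Cdkn2c, encoding the Cdk4 inhibitor p18, at 97.2, 133, 105, 93.4 and 121 RPKM. Neither was ordered against the other or against Rrm2 in every library. Cdkn1c was at 37.2 ± 7.37 RPKM and Cdkn1a, the p53 target p21, at 8.73 ± 1.052 RPKM (14.9 by its longest transcript). Cdkn2a was the 1 member not detected, at 0.255, 0.171, 1.19, 0.548 and 0.174 RPKM, with only WT5 above 1. Of 67 replication-dependent histone genes 35 were detected (52.2%, against 44.1% of all protein-coding genes), 10 had no count and the median was 2.23 RPKM.

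In the Sonic hedgehog pathway, genes of the receptor complex and the effectors were detected and the ligand had few counts. Shh had 4, 6, 1, 2 and 4 counts. Smo, the membrane protein that carries the signal inward, was at 22.4, 21.2, 20.8, 26.6 and 23.7 RPKM. The co-receptors Gas1 and Boc, which help Shh bind, were at 14.4 ± 2.60 RPKM and 13.98 ± 1.45 RPKM, but the third co-receptor, Cdon, was at 0.131 ± 0.0594 RPKM. Ptch1, the receptor and a target of the pathway, was at 4.69, 5.23, 4.76, 5.03 and 6.05 RPKM, and Gli1, a transcriptional effector and target, at 3.97, 3.64, 3.78, 4.99 and 4.27 RPKM. Ptch1 was above Gli1 in 5 of 5 libraries although their ranges overlapped. Gli2, the main activator, was at 5.52 ± 1.06 RPKM and Sufu, which restrains Gli proteins, at 5.34 ± 0.658 RPKM (9.08 by its longest transcript), while Gli3 was at 0.612 ± 0.0767 RPKM. In all 9 of 14 pathway genes were detected (64.3%, against 44.1% of all protein-coding genes). Not detected were Shh, Cdon, Gli3, Hhip and Kif7, the last with 1.02 RPKM on average but 0.569 in WT5.

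The TGF-beta and BMP pathway had 21 of 29 members detected (72.4%, against 44.1% of all protein-coding genes). Skil, which encodes SnoN, was at 5.07, 6.18, 6.12, 4.12 and 5.19 RPKM and ranked 6197 among protein-coding genes, and its relative Ski was at 8.59 ± 1.82 RPKM. Of receptors, Bmpr1a was at 23.4 ± 1.75 RPKM, Tgfbr1 at 19.8 ± 1.95 RPKM and Bmpr2 at 9.01 ± 2.61 RPKM. Smad5 and Smad1, which carry BMP signals to the nucleus, stood at 20.6 ± 2.46 RPKM and 9.06 ± 1.26 RPKM (15.03 by its longest transcript). Of the Smads that carry TGF-beta signals, Smad2 had a mean of 7.14 RPKM by merged exons alone. Smad3 was at 0.955 ± 0.190 RPKM and was not detected by the rule. Smad4, which both kinds of signal share, had a mean of 50.9 RPKM by merged exons alone. The inhibitory Smad6 was at 0.134 ± 0.0491 RPKM. Ligands were low, with Tgfb2 at 4.97 ± 0.845 RPKM and Bmp7 at 1.47 ± 0.361 RPKM detected, and Bmp2, Bmp4, Tgfb1 and Tgfb3 all below 1 RPKM.

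Of the Notch pathway, 10 of 17 members were detected (58.8%, against 44.1% of all protein-coding genes), and 2 Hes and Hey family genes were the highest. Hes6, an antagonist of other Hes proteins in new neurons, was at 84.7, 82.2, 84.0, 108 and 102 RPKM and Hey1, a repressor, at 45.3, 48.4, 46.6, 70.7 and 46.4 RPKM with WT6 apart. The receptor Notch1 was at 0.156 ± 0.0216 RPKM, Notch2 at 2.19 ± 0.478 RPKM, and the canonical targets Hes1 and Hes5 at 1.91 ± 0.576 RPKM and 0.584 ± 0.224 RPKM. Dll3, a ligand that acts inside the cell, was the highest ligand at 7.39 ± 1.72 RPKM.

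In the Wnt list 13 of 24 were detected (54.2%, against 44.1% of all protein-coding genes). Sfrp1, a secreted inhibitor, was at 83.8 ± 7.39 RPKM, Ctnnb1, which encodes beta-catenin, at 64.4 ± 11.3 RPKM, and the receptors Fzd7 and Fzd2 at 41.8 ± 5.24 RPKM and 32.2 ± 3.23 RPKM. Axin2, a target that rises with Wnt signals, was at 1.21, 1.053, 1.17, 1.21 and 1.07 RPKM, and Lef1, a nuclear effector, at 0.321 ± 0.168 RPKM.

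Of 21 growth factor receptors 10 were detected (47.6%), near the 44.1% of all protein-coding genes. Cxcr4, the receptor that holds precursors near the pia, was the highest at 45.1, 46.2, 45.5, 68.4 and 57.6 RPKM, with WT6 and WT7 above the other 3. Ngfr, the p75 neurotrophin receptor, was at 12.9 ± 3.52 RPKM, Igf1r at 5.07 ± 0.667 RPKM and Ntrk2, the BDNF receptor, at 3.33 ± 0.253 RPKM (7.34 by its longest transcript). Among 26 secreted ligands 13 were detected (50%), also near that share. Ptn and Mdk, the heparin-binding factors pleiotrophin and midkine, were far above the rest at 486, 662, 556, 489.8 and 572 RPKM for Ptn and 168, 184, 177, 248 and 219 RPKM for Mdk. Cxcl12, the ligand of Cxcr4 that the meninges make, was next at 17.1 ± 2.40 RPKM. Bdnf had 5, 0, 4, 1 and 6 counts, and Igf2 and Slit3 were at 0.224 ± 0.0992 RPKM and 0.00614 RPKM.

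Of 26 members of the differentiating granule neuron list 23 were detected, with a median of 29.8 RPKM. Tubb3, the neuronal beta-tubulin, was at 595, 595, 619, 544 and 557 RPKM, and Tubb2b at 636, 492, 573, 489 and 561 RPKM. Gap43, a growth cone protein, was at 315 ± 44.2 RPKM, and Stmn2, which binds tubulin in growing axons, at 253 ± 26.5 RPKM (415 by its longest transcript). Dcx, the microtubule protein of migrating neurons, was at 37.1 ± 4.86 RPKM, and Cntn2, the adhesion molecule TAG-1 that marks the inner part of the layer, at 37.0, 39.7, 34.5, 32.1 and 30.9 RPKM. The adhesion genes Astn1, Astn2 and Sema6a, which act in granule cell migration, were at 5.60 ± 0.499, 12.9 ± 1.78 and 12.04 ± 1.06 RPKM.

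Genes of mature granule neurons ran over a graded range with no clear gap at the threshold. Gabra6, the GABA-A receptor subunit that marks mature granule neurons, had no count in any library, and Gabrd, Grin2c, Cbln3 and Grm4 were between 0.152 and 0.218 RPKM. Cbln1, a synapse organiser released by granule neurons, was at 94.1, 78.4, 96.0, 99.7 and 95.2 RPKM. Rbfox3, the neuronal antigen NeuN, was at 22.1 ± 2.18 RPKM (40.8 by its longest transcript), the potassium channel Kcnd2 at 17.7 ± 3.65 RPKM, and the vesicular glutamate transporter Slc17a7 at 7.04 ± 1.61 RPKM (12.3 by its longest transcript). Calm2, one of 3 calmodulin genes and widely expressed, led the list at 638 ± 87.0 RPKM, so the list's sum does not stand for maturity. Camk4, a calcium-dependent kinase, was at 12.2 ± 1.86 RPKM. Nearer the threshold were the calcium buffer calretinin, Calb2, at 1.45 ± 0.445 RPKM, and Fat2, a cadherin of granule cells, at 0.905 ± 0.0867 RPKM. In all 10 of 18 members were detected (55.6%, against 44.1% of all protein-coding genes).

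Of 22 glutamate receptor subunits 6 were detected (27.3%), among them the AMPA subunits Gria2 at 12.2 ± 2.34 RPKM, Gria4 at 8.60 ± 0.361 RPKM and Gria1 at 7.004 ± 1.54 RPKM, and the kainate subunits Grik5 at 10.7 ± 0.827 RPKM and Grik2 at 9.29 ± 0.854 RPKM. No NMDA receptor subunit was detected, and Grin1, the subunit every NMDA receptor needs, was at 0.509, 0.433, 0.432, 0.742 and 0.469 RPKM. Of 13 GABA-A subunits 5 were detected (38.5%), near the 44.1% of all protein-coding genes.

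Markers of cells that border the layer or lie within it were present at levels that ranged over several orders of magnitude. Bergmann glia and astrocyte genes had 19 of 20 members detected and a summed level of 630.5 to 877 RPKM. Fabp7, a lipid-binding protein of radial and Bergmann glia, was at 419.6, 431, 471, 284 and 524 RPKM. Apoe, a lipid carrier of astrocytes, was at 104 ± 12.1 RPKM (158 by its longest transcript), Slc1a3, the glial glutamate transporter GLAST, at 21.98 ± 5.63 RPKM (42.3 by its longest transcript), and Hopx at 12.2 ± 1.70 RPKM. Gfap, the astrocyte filament protein, was at 9.16, 4.95, 10.6, 4.05 and 6.49 RPKM (a mean of 11.2 by its longest transcript). The 1 member not detected was Ptprz1, at 0.948 RPKM in WT6 and 1.77 ± 0.605 RPKM (3.12 by its longest transcript) on average.

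Purkinje cell markers had 7 of 16 members detected (43.8%, against 44.1% of all protein-coding genes) and a summed level of 115.7 to 146 RPKM. With the longest transcript as length, 11 passed. Car8, which encodes a protein that binds the IP3 receptor, was at 36.2, 41.0, 24.7, 32.4 and 28.1 RPKM. Pcp4 was at 25.8 ± 4.50 RPKM (41.4 by its longest transcript), Calb1, the calcium buffer calbindin, at 20.5, 24.3, 17.2, 17.1 and 17.4 RPKM, and Pcp2 at 9.45 ± 2.30 RPKM. Skor2, a factor that defines Purkinje cells, had 8, 0, 0, 0 and 7 counts. Pcp4 and Lhx1 are also expressed outside Purkinje cells. How much of the layer's RNA comes from Purkinje cells was not tested.

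Of 10 inhibitory interneuron markers 2 were detected (20%, against 44.1% of all protein-coding genes), and the median was 0.403 RPKM. Pax2, which marks their precursors, had 8, 12, 6, 0 and 4 counts. The detected members were Kit at 3.02 ± 0.655 RPKM (5.13 by its longest transcript) and Slc32a1 at 2.26 ± 0.345 RPKM. Gad1 and Gad2, the enzymes that make GABA, were at 1.25 ± 0.364 RPKM (2.65 by its longest transcript) and 0.333 ± 0.144 RPKM. Of the genes shared by unipolar brush cells and the rhombic lip, Eomes was at 6.82 ± 1.48 RPKM and Wls at 7.87 ± 1.40 RPKM (19.4 by its longest transcript), while Lmx1a had no count. Of 12 oligodendrocyte markers 4 were detected (33.3%): Pdgfra, Cldn11 at 8.57 ± 2.48 RPKM, and the myelin genes Mbp at 7.19 ± 0.966 RPKM (12.7 by its longest transcript) and Cnp at 4.34 ± 0.929 RPKM. Pdgfra, a receptor of their precursors and of meningeal fibroblasts, was at 24.8, 24.3, 24.6, 26.8 and 27.9 RPKM, whereas Sox10, which all oligodendrocyte lineage cells express, was at 0.176 ± 0.222 RPKM with 0, 4, 5, 1 and 25 counts. Mobp, another myelin gene, had 3, 0, 0, 0 and 38 counts, nearly all in WT7.

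Microglial complement genes were detected, with C1qa at 9.23 ± 1.58 RPKM, C1qb at 6.50 ± 1.45 RPKM and C1qc at 3.29 ± 0.992 RPKM (5.29 by its longest transcript). Cx3cr1 and Trem2 were at 0.542 ± 0.114 RPKM and 0.0976 ± 0.0464 RPKM. In all 5 of 13 microglial members were detected (38.5%), near the 44.1% of all protein-coding genes. Endothelial and pericyte genes had 8 of 12 detected (66.7%, against 44.1% of all protein-coding genes). Cldn5, the tight junction protein of brain endothelium, was at 91.9, 129.9, 121, 129 and 124 RPKM, and Rgs5, a pericyte gene, at 26.9 ± 6.15 RPKM. Hbb-bs, an adult beta-globin, was at 603, 509, 646, 363 and 673 RPKM, and 5 of 7 red blood cell genes were detected. Globin paralogs share sequence, so the split between Hba-a1 and Hba-a2, at 31.9 ± 9.29 and 24.5 ± 9.27 RPKM, is uncertain.

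Meningeal genes had 10 of 12 members detected (83.3%, against 44.1% of all protein-coding genes), and here 1 library stood apart. The summed level was 206.5 RPKM in WT3 and 94.9 to 110.3 RPKM in the other 4. Ptgds, the prostaglandin synthase of the pia and arachnoid, was at 23.8, 68.5, 11.1, 11.1 and 7.99 RPKM, and without WT3 its mean was 13.6 in place of 24.5. Col3a1, a fibrillar collagen, was at 33.2, 60.3, 33.6, 39.9 and 33.4 RPKM (a mean of 70.7 by its longest transcript), and Ogn, a proteoglycan of connective tissue, at 1.02, 5.69, 0.798, 1.002 and 1.64 RPKM, with a mean of 2.03 RPKM and 1.12 without WT3. WT3 was the highest for all 3. No choroid plexus gene was detected: Ttr, its most abundant secreted product, had 0, 0, 15, 0 and 0 counts, and Folr1 had 0, 2, 1, 0 and 0.

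**Figure D4:**
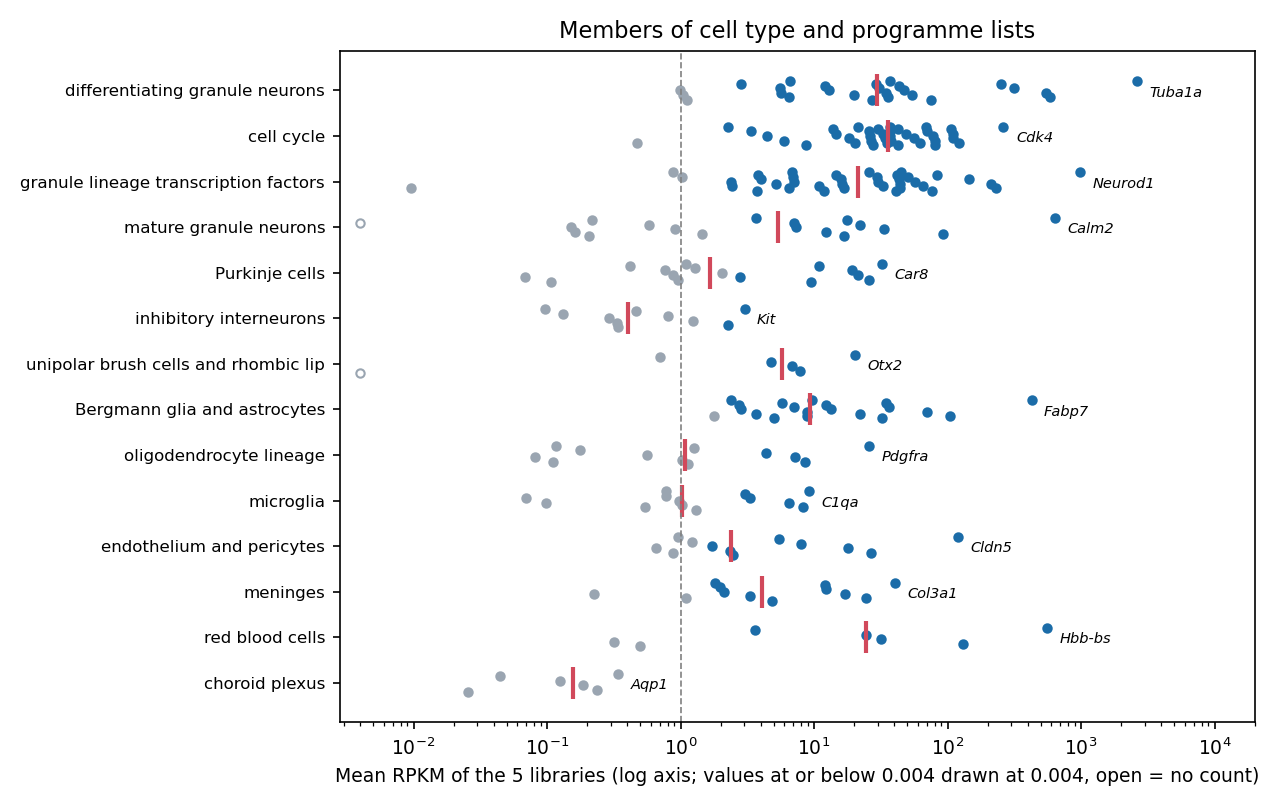
Mean RPKM (log axis) of each member of 14 gene lists, blue where detected in all 5 libraries and grey where not, open where no count was present, with the list median in red and the highest member named. The medians of cell cycle genes and differentiating neurons are 36.1 and 29.8 RPKM, that of Bergmann glia and astrocytes is 9.31, and those of interneurons and choroid plexus are 0.403 and 0.156.

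Immediate-early genes rise within minutes of activity or tissue stress. Of 18 in the list 7 were detected (38.9%), near the 44.1% of all protein-coding genes. Jund, the Jun family member with steady expression, was at 77.6 ± 6.01 RPKM, Jun at 25.4 ± 3.04 RPKM, Ier2 at 24.8 ± 2.05 RPKM and Dusp1 at 9.20 ± 1.28 RPKM. Fos had 8, 14, 6, 6 and 0 counts, Fosb had none, and the activity-dependent Npas4 and Arc were at 0.0102 and 0.620 RPKM. The heat shock genes Hspa1a and Hspa1b were at 0.0571 and 0.370 RPKM.

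Several large families had almost no counts. No count was found for 1059 of 1134 olfactory receptors, 304 of 320 vomeronasal receptors, 41 of 53 keratins, 61 of 64 defensins and 36 of 38 taste receptors. Of all protein-coding genes 26.9% had no count. Of these families, 1 keratin (Krt10) and 1 defensin (Defb42) were detected. Those 2 genes were singled out after their values were seen. At the edge of detection, 1289 protein-coding genes were at 1 RPKM or more in some libraries and below it in others. Near that edge Smad3 lay at 1.23, 0.703, 1.01, 0.905 and 0.932 RPKM, and Gad1 at 1.33, 1.82, 1.21, 0.892 and 0.987 RPKM.

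Protein-coding genes held 95.3% to 96.5% of gene counts. Among noncoding genes the highest RPKM belonged to Mir6236 at 37873 ± 7556 RPKM and Gm23935 at 13859 ± 3419 RPKM, both annotated as microRNA genes, and to CT010467.1, annotated as ribosomal RNA, at 6428 ± 1153 RPKM. Genes annotated as ribosomal RNA held 1.83% to 2.75% of counts. A library of this kind does not capture mature microRNAs as such, and whether the reads at Mir6236 and Gm23935 come from microRNA precursors or from ribosomal RNA was not tested. Of 16 named long noncoding RNAs 7 were detected (43.8%, against 44.1% of all protein-coding genes). Peg13, an imprinted transcript, was at 23.1 ± 3.02 RPKM, and Malat1, a nuclear RNA, at 16.3, 13.3, 16.7, 6.65 and 6.34 RPKM, low in WT6 and WT7. Neat1, another nuclear RNA, had 1, 3, 5, 9 and 14 counts.

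The libraries fell into 2 kinds by sex-linked genes, which the labels do not mention. Ddx3y, on the Y chromosome, had 3, 2, 2103, 2 and 3058 counts. Xist, the RNA of the inactive X chromosome, was at 8.53, 10.4, 0.539, 11.4 and 0.295 RPKM. WT5 and WT7 thus had Y-linked RNA and little Xist, and WT1, WT3 and WT6 the reverse.

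Levels agreed closely between libraries for most genes. Among 10497 genes with a mean of at least 5 CPM the median CV was 12.8%, with quartiles of 8.83% and 18.0%, and only 23 (0.219%) had a CV over 50%. edgeR's common biological coefficient of variation was 14.4% over 12303 genes. With WT2 it was 22.5%.

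The 8 genes with the smallest CV among those of at least 50 CPM included 4 given here. Ciao2b, of cytosolic iron-sulfur assembly, was at 116, 117, 119, 119 and 118 RPKM, a CV of 0.915%. Cdk16, a cyclin-dependent kinase of neurons and other cells, was at 54.4 ± 0.668 RPKM, Anp32a, a histone-binding protein, at 178 ± 2.53 RPKM, and Ddx5, an RNA helicase, at 105 ± 1.61 RPKM (168 by its longest transcript). With 10497 genes and 5 libraries some must fall close together, so a small CV here does not mark a gene as constant in other samples.

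Genes were ranked by dispersion over the trend, which was estimated only where the minimum count level was met in all 5 libraries. The most variable of these ranked genes were Xist and Ptgds. Ddx3y, with very few counts in some libraries, was left out of the ranking by that filter. S100a9, a protein of neutrophils, was at 10.6, 5.55, 9.81, 38.4 and 24.2 RPKM, highest in WT6 and WT7. Eln, which encodes elastin, was at 9.50, 11.1, 9.52, 21.9 and 13.5 RPKM (a mean of 27.5 by its longest transcript), highest in WT6. Pfdn4, a prefoldin subunit, was at 83.5, 118, 104, 68.7 and 179.8 RPKM (a mean of 269 by its longest transcript) and Gnpda2, an enzyme of amino sugar metabolism, at 5.01, 6.31, 6.02, 3.95 and 11.6 RPKM, both highest in WT7. Sema3d, a guidance protein, was at 7.66, 10.4, 7.92, 3.58 and 5.65 RPKM, highest in WT3 and lowest in WT6. Of the 200 most variable of the ranked genes, 101 were highest in WT3 and 120 lowest in WT6.

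GC content and length of transcripts both moved with these library differences. When genes were put into 5 equal groups by GC content, in the group with the lowest GC the median deviation from the mean of 5 libraries was 0.134 log2 units in WT3 and -0.145 in WT6. In the group with the highest GC it was -0.079 in WT3 and 0.103 in WT6, while WT1, WT5 and WT7 stayed between -0.022 and 0.026 in both. By length of the longest transcript, also in 5 groups, WT3 went from -0.074 in the shortest to 0.113 in the longest and WT6 from 0.031 to -0.049. Neurod1, with a GC content of 43.6%, was highest in WT3 and lowest in WT6. It falls in group 2 from the lowest GC, where the median deviation was 0.028 in WT3 and -0.035 in WT6. Atoh1, at 53.1%, was highest in WT6. It falls in group 4, where the median deviation was -0.064 in WT3 and 0.076 in WT6. The part of GC content or length in these 2 genes was not tested. With each library's GC trend removed the common coefficient was 13.7%.

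**Figure D5:**
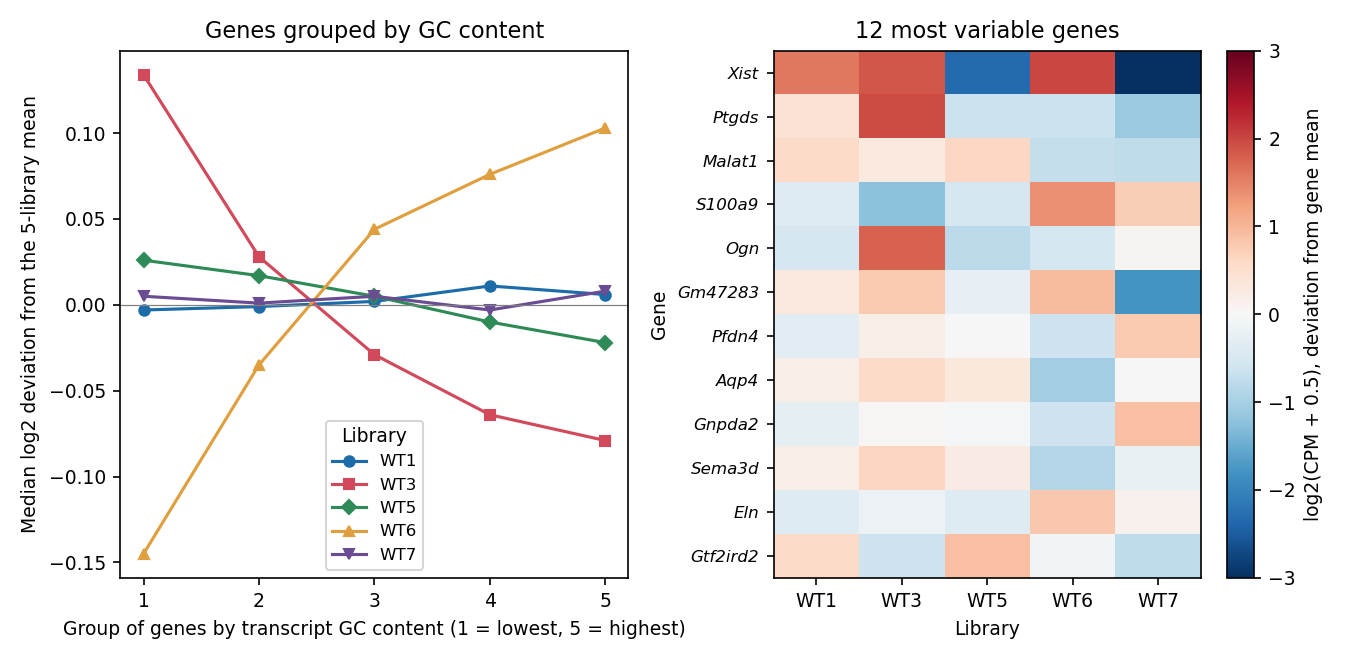
Left, median log2 deviation of each library from the mean of 5 libraries for genes in 5 equal groups by transcript GC content, in which WT3 falls from 0.134 to -0.079 and WT6 rises from -0.145 to 0.103. Right, deviation of log2(CPM + 0.5) from the gene's mean for the 12 most variable of the genes ranked by dispersion. Xist splits WT5 and WT7 from the others, and Ptgds and Ogn are highest in WT3.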

How the data were processed

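RNA of 5 wild-type external granule layer libraries was described. For each library the authors deposited a table of raw read counts by gene, made with cutadapt 1.16, STAR 2.5.3a and HTSeq 0.6.1 on mm10, per the submitters' processing notes; for settings, strand mode and annotation release the sources used here say nothing. The 5 summary rows of each table were left out. Reads aligned to several places, 64.9% to 66.1% of records, were not in gene counts, and 10.8% to 14.7% of the uniquely placed reads lay outside genes, with another 7.44% to 8.03% ambiguous.

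Of 53379 gene rows, 53274 matched GENCODE M21 (GRCm38, also called mm10), which gave symbols, positions and lengths. RPKM is the count per kilobase of merged exons per 1000000 gene counts times the TMM factor (edgeR 4.0.16, R 4.3.3). Dispersion came from an intercept-only edgeR fit with filterByExpr (minimum count 10), tested on simulated data. That filter asks for the minimum level in all 5 libraries, so genes below it in any library were not ranked by dispersion. With 1 group nothing was tested; an order of 2 genes is given as the number of libraries that hold it. The per-library totals give the depth behind each value.

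The members, the 27 gene lists and the 36 gene families were chosen with earlier results of these data known. Named genes are the markers, the 20 highest nuclear protein-coding and 10 highest noncoding genes, the 5 highest members of each list and those without a count, the 3 highest of each transcription factor family, the 12 most variable (mean of 5 CPM or more) and 8 steadiest genes (50 CPM or more), and Skil. From these the text was written, and other list members it names, such as defining markers at low level, were chosen after their values were seen. A few genes that the rule selects are not reported here. Of 236 named genes that were looked up for overlap, 62 lie over an antisense gene of the annotation. Their reads were not separated from those of that gene, since the kit named in the labels (NEBNext Ultra RNA) is not a directional one. Alternatives were library size alone, RLE factors, the longest transcript as length, WT2 added, each library left out, other thresholds, no filter and a GC correction (spline with 5 degrees of freedom).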

Additional observations from a re-analysis of the deposited data

Results flagged for a closer look

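Of 252 measures (levels of named genes, summed levels of lists and library measures), 25 had 1 library set apart from the other 4, by a gap of over 0.71 of the whole range (Dixon's value for 5 samples). For independent normal values chance gives about 1 in 20. Some of these genes were named because they vary most, and some have counts in 1 library only, which fixes the gap, so the number is not read against that share. No cause was tested. WT1 was the lowest for Cldn5 (91.9 against 121 to 129.9 RPKM). WT3 was the highest for Col3a1 (60.3 against 33.2 to 39.9 RPKM), Grm4 (0.301 against 0.0909 to 0.150 RPKM), Meis2 (0.0415 against 0 to 0.00622 RPKM), Ogn (5.69 against 0.798 to 1.64 RPKM), Ptgds (68.5 against 7.99 to 23.8 RPKM) and the summed level of meninges (206.5 against 94.9 to 110.3 RPKM). WT3 was the lowest for Cbln1 (78.4 against 94.1 to 99.7 RPKM). WT5 was the highest for Slit3 (0.0307 against 0 in the others), Ttr (1.18 against 0 in the others) and the summed level of choroid plexus (1.80 against 0.535 to 0.866 RPKM). WT6 was the highest for Boc (16.6 against 13.1 to 13.6 RPKM), Dlx1 (0.0476 against 0 in the others), Grin1 (0.742 against 0.432 to 0.509 RPKM), Hey1 (70.7 against 45.3 to 48.4 RPKM), Hhip (0.383 against 0.0513 to 0.124 RPKM) and Sfrp1 (96.5 against 77.4 to 82.2 RPKM). WT6 was the lowest for Dcx (28.8 against 37.3 to 40.7 RPKM), Tmsb4x (2746 against 3988 to 4226 RPKM) and the summed level of Bergmann glia and astrocytes (630.5 against 809.7 to 877 RPKM). WT7 was the highest for Grin2c (0.324 against 0.178 to 0.204 RPKM), Hoxd8 (0.149 against 0 to 0.0273 RPKM), Mobp (0.377 against 0 to 0.0328 RPKM) and Sox10 (0.557 against 0 to 0.153 RPKM). WT7 was the lowest for Grik2 (7.83 against 9.45 to 10.1 RPKM).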

How the results depend on the processing

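Detection did not rest on scaling. The count of detected genes was 9649 with library size alone and 9645 with RLE factors, 9351 with WT2, 10118 with the longest transcript as length and 9694 to 9739 with a library left out, but 5821 at a threshold of 5 RPKM and 10737 at 0.5. Counts per list were within 1.5 times of those reported under every alternative run except Purkinje cell markers, 11 in place of 7 with the longest transcript. With WT2 the mitochondrial share was 2.657% in place of 2.213%. The common coefficient of variation was 22.55% with WT2, 17.03% without a filter, and 13.21% to 15.76% with 1 library left out; the cause was not tested. Of 173 named genes at 1 RPKM or more on average, 34 moved over 1.5 times with the longest transcript, 3 with a library left out (Ogn and Ptgds without WT3, Ddx3y without WT5 or WT7) and 2 with WT2, namely Ogn, at 3.11 RPKM, and Bmpr2, from 9.01 to 14.9 RPKM. No paired analysis was possible because 1 group was described, with no comparison to pair.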

Other observations

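Some families not described above also had abundant members. Of 26 Klf and Sp factors, which bind GC-rich DNA, 14 were detected (53.8%, against 44.1% of all protein-coding genes). The highest were Sp3 at 74.4 ± 12.9 RPKM, Klf10 at 28.7 ± 6.27 RPKM and Sp4 at 26.7 ± 4.34 RPKM. Of 44 Fox factors 14 were detected (31.8%), led by Foxk2 at 27.5 ± 2.11 RPKM and Foxn2 at 15.8 ± 3.32 RPKM. Another 14 had no count, against 26.9% of all protein-coding genes. In the Pou family Pou3f3 was at 14.96 ± 2.37 RPKM and Pou3f2 at 9.54 ± 1.62 RPKM, and in the Lhx and Isl family Lhx1, at 21.3 ± 2.07 RPKM, was the 1 detected member of 10. Of 394 zinc finger genes named Zfp 257 were detected (65.2%, against 44.1% of all protein-coding genes) with a median of 2.63 RPKM. Of 57 clustered protocadherins 6 were detected (10.5%) and 4 had no count, with a median of 0.213 RPKM. Of 100 cytochrome P450 genes 9 were detected (9%, against 44.1% of all protein-coding genes) and 62 had no count (against 26.9%). Of 45 collagens 13 were detected (28.9%), led by Col3a1.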
